A study of Lactuca sativa with 6 samples.

Results

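Histones are the proteins around which DNA is wound, and the genes for them form large families in plants. The nucleosome core holds the histones H2A, H2B, H3 and H4, and histone H1 binds the linker DNA between cores. Most of this protein is made in S phase, when the replicated DNA is packed, so these genes are known for high transcript levels in dividing cells of young leaves. Variant histones, such as H2A.X, which is phosphorylated at DNA breaks, and centromeric H3, replace the usual forms at particular places.

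The deposited table of lettuce leaf transcripts lists 2579 genes, of which 78 were taken as histone genes because their Swiss-Prot description, the name of the most similar known protein, begins with histone H, or with probable or putative before it. By these descriptions, 5 were H1, 23 were H2A, 16 were H2B, 13 were H3 and 21 were H4 genes. The H2A genes include 3 described as H2A.X and 3 as the rice protein probable histone H2A variant 3. The H3 genes comprise 12 described as H3.2 and 1 as the centromeric protein HTR12, and the H4 genes include 2 described as H4 variant TH091. No listed gene was described as H3.3. Swiss-Prot names come mostly from other species, and very similar copies of a histone gene may share reads, so single copies are less certain than classes.

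RNA was taken from young leaves of 1-month-old plants of cultivar S39, in 3 wild-type (WT) replicates, which the methods call biological, and 3 replicates of plants carrying the *LsAP2* coding sequence in pBI121 under the cauliflower mosaic virus 35S promoter (*LsAP2*-OE). This promoter is active in most plant tissues, and the sources used here do not say which transgenic line or lines were sequenced. *LsAP2* (Lsat_1_v5_gn_3_89681), a transcriptional repressor gene, was at 25.3 to 30.5 in WT and at 209 to 224 in *LsAP2*-OE, higher in every labelled *LsAP2*-OE library. Each gene has 1 normalized expression value in each library. The sources do not name the kind of normalization, and without counts the depth of the libraries is unknown. It lists only genes that the authors had called different between these same libraries, so an unchanged histone gene cannot appear in it, and the p-values below are not independent of that choice.

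The histone genes were lower in *LsAP2*-OE leaves in every class. All 78 were called lower by limma at an adjusted p below 0.01, against 39.6% of all listed genes (1021 of 2579). All 78 also had every *LsAP2*-OE library below every WT library, which held for 39.7% of the listed genes. The log2 fold changes ran from −2.24 to −1.11, with a median of −1.54. The median was 1.03 over all listed genes and −1.49 over the 943 other genes called lower. The adjusted p-values from limma ran from 1.1e-07 to 0.00103 for the histone genes. As folds of the group means, 65 of the 78 were at least 2.5-fold lower and 34 at least 3-fold lower, against 29.7% and 18.6% of all listed genes. Without WT replicate 1, 55 and 12 of the 78 were. The shares of all listed genes include that library and were not computed without it. The authors kept only genes changed at least 2-fold, and the smallest fall of a histone gene was 2.17-fold. In whole leaves, fewer cells that express histones and less histone RNA per cell cannot be told apart.

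**Figure D1:**
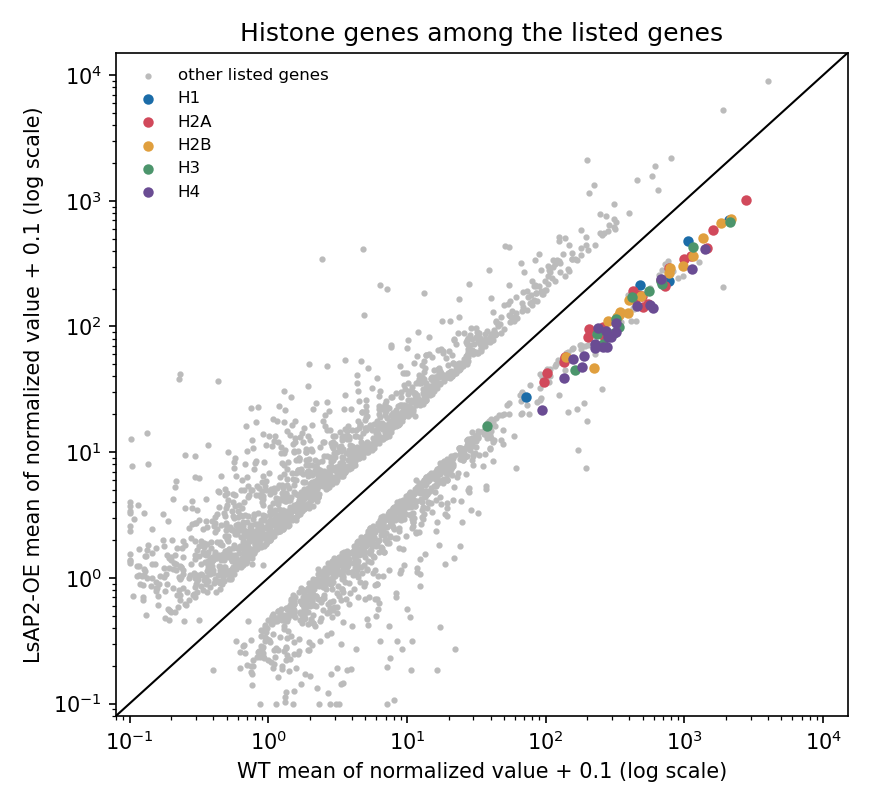
Mean normalized value plus 0.1 of each listed gene in *LsAP2*-OE leaves (vertical, log scale) against WT leaves (horizontal, log scale), with histone genes coloured by class, other listed genes in grey and a line of equal values. All 78 histone genes lie below the line, most of them at the upper end of the WT values.

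The histone genes also held much of the listed signal in WT. Their values summed to 55216, 41425 and 43241 in WT replicates 1, 2 and 3, and to 15472, 16177 and 15689 in the *LsAP2*-OE replicates. The sum was therefore 2.95-fold lower in *LsAP2*-OE, and 2.68-fold lower without WT replicate 1. As a share of the sum over all listed genes, histone genes made up 48.9%, 42.4% and 43.1% in WT and 15.0%, 14.9% and 15.2% in *LsAP2*-OE. Of the 100 listed genes with the highest WT mean, 60 were histone genes, and of the 100 with the highest *LsAP2*-OE mean, 23 were. Values of different genes compare as levels only if they were scaled to gene length, which is not stated. Across the 78 genes the order of the means was nearly the same in both groups (Spearman's rho 0.978), a description over genes whose copies may share reads.

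WT replicate 1 stood apart from the other WT libraries in the histone genes. It was the highest of the WT libraries in 75 of the 78, against 856 of the 2579 listed genes (ties included). Its histone sum was 1.30 times the mean of WT replicates 2 and 3. The excess differed between classes: it was 1.09 times for H1, 1.23 for H2B, 1.30 for H3, 1.31 for H2A and 1.56 for H4. Over single genes the ratio ran from 0.936 to 2.42, with a median of 1.02 for H1 and 1.47 for H4. The sum over 20 genes of DNA replication was 1.00 times as high in WT replicate 1 as in the others, and the sum over all listed genes other than histones was 1.02 times as high. The histone genes were not alone, since the sum over 8 chlorophyll a-b binding genes was 1.19 times as high in WT replicate 1. That library was the highest WT library in 7 of these 8. The sum over 6 meristem and organ boundary genes was 1.18 times as high, but the median ratio of these genes was 1.03. Their gene of highest WT mean, Lsat_1_v5_gn_6_20120 (knotted-1-like 3), was at 32.0, 20.9 and 27.8 in WT, so this sum rests largely on 1 gene. The coefficient of variation had a median of 16.2% over the histone genes in WT and of 5.20% in *LsAP2*-OE, and it was larger in WT for 73 of the 78. Class values are therefore given with and without this library.

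**Figure D2:**
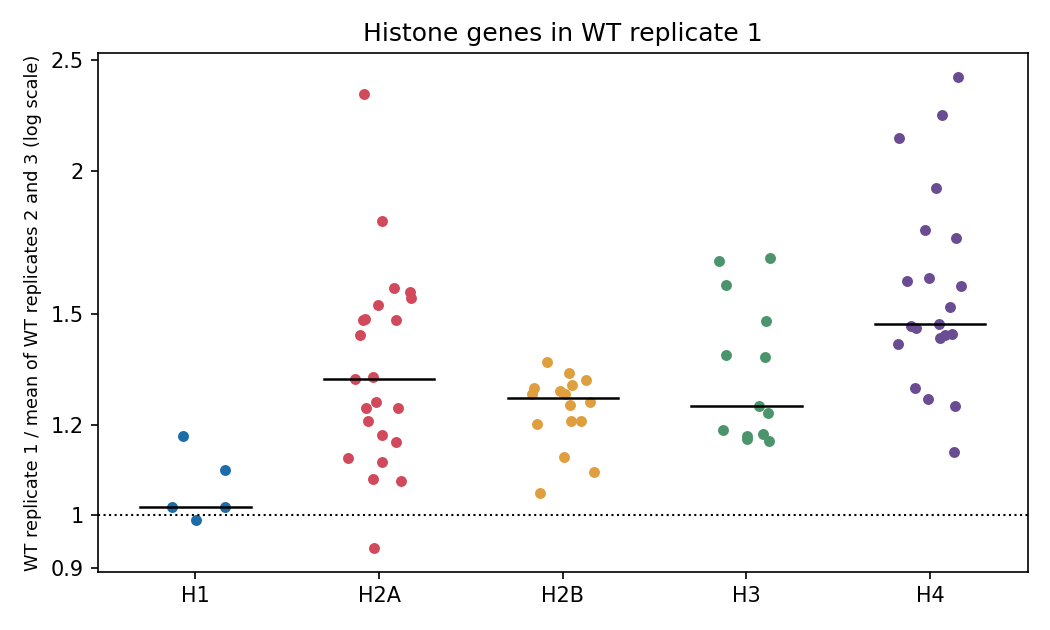
Value of each histone gene in WT replicate 1 divided by its mean in WT replicates 2 and 3 (vertical, log scale), by class. Points are genes, black bars are class medians and the dotted line marks equal values: the H1 genes lie near 1 and the H4 genes highest, up to 2.42.

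Histone H1, the linker histone, had 5 listed genes, and they were the most even in WT, with a median coefficient of variation of 2.27%. The class sum was 4757, 4371 and 4346 in WT and 1638, 1651 and 1702 in *LsAP2*-OE, a 2.70-fold difference of the means (2.62-fold without WT replicate 1). The groups were far apart, and each was close within itself. The main H1 gene, Lsat_1_v5_gn_5_72760, was at 2328, 1985 and 1982 in WT and at 692, 714 and 723 in *LsAP2*-OE, and it held 46.7% of the WT class value. Lsat_1_v5_gn_3_73941 fell furthest in the class, from 772 ± 6.76 to 229 ± 14.4 (SD, n = 3), and limma gave −1.75 ± 0.066 on the log2 scale (SE, adjusted p = 1.1e-07). Lsat_1_v5_gn_9_9661 was at 1081, 1077 and 1049.7 in WT and at 485, 469 and 495 in *LsAP2*-OE, and Lsat_1_v5_gn_1_16860 at 509, 455 and 474 against 214, 217 and 212. These genes fell less than the main one, by 2.21-fold and 2.23-fold. The lowest of the 5, Lsat_1_v5_gn_5_72780, went from 72.4 ± 1.65 to 27.5 ± 1.57 (SD, n = 3).

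H2A, which pairs with H2B in the core, was the largest class. Its sum was 17255, 12896 and 13446 in WT and 5059, 5177 and 5015 in *LsAP2*-OE, 2.86-fold lower (2.59-fold without WT replicate 1), and the median log2 fold change of its 23 genes was −1.42. The H2A gene Lsat_1_v5_gn_8_77801 had the highest value of all histone genes, 3135, 2549 and 2638 in WT against 1001, 1045 and 1024 in *LsAP2*-OE, and only 1 other listed gene had a higher WT mean. Next by WT mean were Lsat_1_v5_gn_6_32381, which fell from 1598 ± 68.1 to 584 ± 21.1, and Lsat_1_v5_gn_9_22420, which fell from 1446 ± 348 to 423 ± 10.3 (SD, n = 3). The larger WT spread of the latter came with a WT replicate 1 value of 1846 beside 1215 and 1277. The furthest falls among the usual H2A genes were of Lsat_1_v5_gn_5_168940 and Lsat_1_v5_gn_5_168801, by 3.64-fold and 3.49-fold. The smallest were of Lsat_1_v5_gn_7_108060 and Lsat_1_v5_gn_0_7041, by 2.22-fold and 2.17-fold.

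The 3 H2A.X genes and the 3 H2A variant genes were all called lower, with falls inside the range of the usual H2A genes. Their WT means ranged from 102 to 498 and from 136 to 138. Lsat_1_v5_gn_9_5060, described as H2A.X, was at 521, 486 and 487 in WT and at 177, 169 and 178 in *LsAP2*-OE, with a limma log2 difference of −1.51 ± 0.060 (SE, adjusted p = 1.36e-07). The other H2A.X genes, Lsat_1_v5_gn_5_38140 and Lsat_1_v5_gn_4_139101, were 2.69-fold and 2.40-fold lower. Some variant H2A proteins are known to be made outside S phase as well, which was not tested for these genes. Of the 3 described as variant 3, Lactuca_sativa_newGene_5831 was at 148, 130.2 and 135 in WT and at 55.1, 56.3 and 55.3 in *LsAP2*-OE. Lsat_1_v5_gn_5_185180 was 2.60-fold lower and Lsat_1_v5_gn_8_94420 was 2.40-fold lower. The median log2 fold change was −1.42 for H2A.X, −1.30 for variant 3 and −1.45 for the other 17 H2A genes, ranges that overlap.

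H2B had a sum of 13700, 11062 and 11274 in WT and of 3955, 4291 and 4260 in *LsAP2*-OE, 2.88-fold lower (2.68-fold without WT replicate 1). Its highest gene, Lsat_1_v5_gn_1_64820, was at 2550.2, 1978 and 2018 in WT and at 632, 751 and 786 in *LsAP2*-OE. Lsat_1_v5_gn_8_77740 was steadier, at 1891, 1817 and 1799 in WT and at 650.1, 669.7 and 668 in *LsAP2*-OE, and Lsat_1_v5_gn_9_71381 was 2.68-fold lower. The furthest fall of any histone gene was of the H2B gene Lsat_1_v5_gn_2_63781, at 261, 212 and 195 in WT and at 53.6, 40.1 and 46.8 in *LsAP2*-OE. Its mean was 4.75-fold lower (4.34-fold without WT replicate 1), and limma gave a log2 difference of −2.24 ± 0.133 (SE, adjusted p = 8.8e-07). Apart from it, the H2B genes lay close together, with log2 differences of −1.66 to −1.28. Lsat_1_v5_gn_8_17780 was at the far end, 3.19-fold lower, and Lsat_1_v5_gn_9_22461 and Lsat_1_v5_gn_8_22980 were at the near end, each 2.45-fold lower.

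H3, which pairs with H4, had a sum of 8627, 6425 and 6868 in WT and of 2407, 2512 and 2408 in *LsAP2*-OE, 2.99-fold lower (2.72-fold without WT replicate 1). A single H3.2 gene, Lsat_1_v5_gn_6_48661, held 29.3% of the WT value, at 2622, 1810.1 and 1999.8 in WT and at 696, 728 and 626 in *LsAP2*-OE. The name H3.2 is that of the closest Swiss-Prot protein. Next were Lsat_1_v5_gn_6_104521 and Lsat_1_v5_gn_7_10540, 2.72-fold and 3.18-fold lower. Lsat_1_v5_gn_1_67140 and Lsat_1_v5_gn_1_9380 fell furthest in the class, by 3.61-fold and 3.57-fold, and WT replicate 1 was 1.59 and 1.67 times the mean of the other WT libraries in them. The centromeric H3 gene Lsat_1_v5_gn_2_63440, whose product marks the place where the spindle attaches, had the lowest value of the 78, at 46.2, 33.3 and 33.6 in WT and at 16.3, 15.6 and 16.4 in *LsAP2*-OE. Its fall was the smallest in the class, at −1.20 ± 0.125 on the log2 scale (SE, adjusted p = 2.14e-05, limma).

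H4 fell furthest of the 5 classes, but by less when WT replicate 1 was left out. Its sum was 10877, 6672 and 7307 in WT and 2413, 2547 and 2305 in *LsAP2*-OE, 3.42-fold lower, or 2.89-fold without that library, in both cases the largest fold of the 5 class sums. Of the 21 genes, 17 were at least 3-fold lower, and 7 were without WT replicate 1. The counterparts among the 78 histone genes were 34 and 12. Of all listed genes, 18.6% were at least 3-fold lower with WT replicate 1 included, and the share without it was not computed. The highest H4 gene, Lsat_1_v5_gn_5_168841, was at 1748, 1176 and 1271 in WT and at 407, 444 and 383 in *LsAP2*-OE, and Lsat_1_v5_gn_8_77961 at 1498, 874 and 1015 against 297, 311 and 256. The smallest falls among the usual H4 genes were of Lsat_1_v5_gn_7_54561 and Lsat_1_v5_gn_1_129540, each 2.86-fold. The furthest falls were of Lsat_1_v5_gn_7_36021, at 149, 58.0 and 75.1 in WT and at 19.7, 25.1 and 20.2 in *LsAP2*-OE, and of Lactuca_sativa_newGene_4124, at 972, 366 and 438 against 137, 133 and 149. Both rest in part on WT replicate 1: their folds of 4.33 and 4.23 were 3.07 and 2.87 without it. The genes described as H4 variant TH091, Lsat_1_v5_gn_5_167041 and Lsat_1_v5_gn_8_78900, were 2.91-fold and 2.44-fold lower. A second annotation, the NR description, names both simply histone H4, so they are set apart here by the Swiss-Prot name only.

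**Figure D3:**
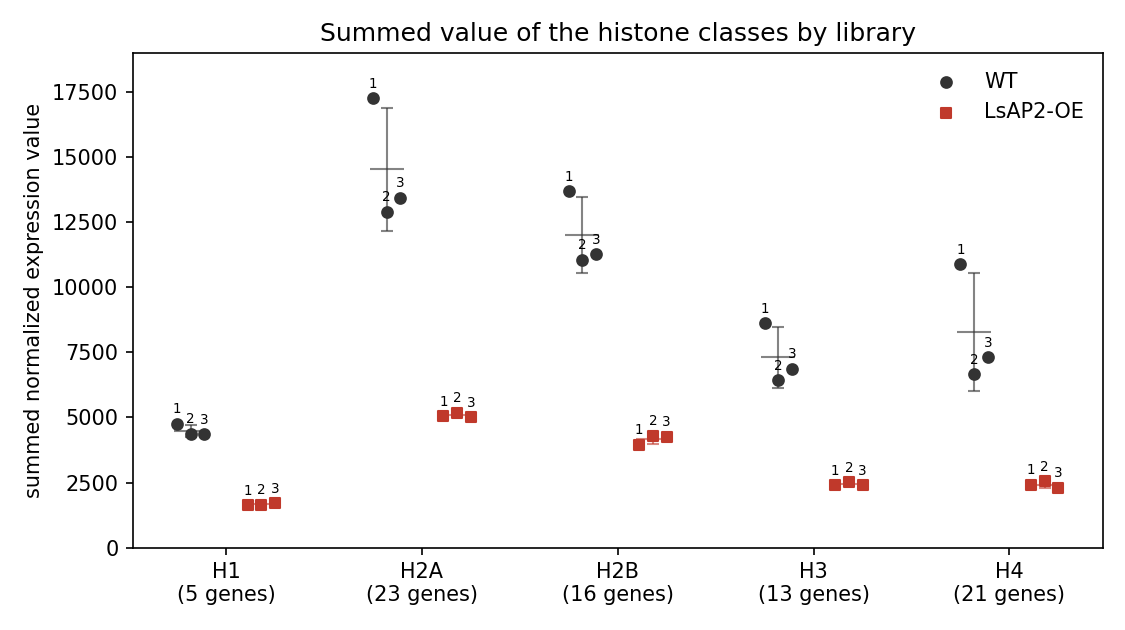
Summed normalized value of each histone class (vertical) by library, with WT as circles, *LsAP2*-OE as squares, the replicate number above each point, and bars for mean and SD (n = 3). In all 5 classes the *LsAP2*-OE sums lie below the WT sums, and WT replicate 1 is the highest WT point, most clearly for H4, at 10877 against 6672 and 7307.

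The make-up of the histone value shifted by at most 2.22 percentage points in the mean share of a class. H1 held 9.74% ± 1.00 of it in WT and 10.5% ± 0.324 in *LsAP2*-OE, H2B 25.9% ± 0.963 and 26.4% ± 0.800, and H3 15.7% ± 0.190 and 15.5% ± 0.113 (SD, n = 3), and in these classes the libraries of the groups overlapped. H2A held 31.2%, 31.1% and 31.1% in WT and 32.7%, 32.0% and 32.0% in *LsAP2*-OE, and H4 held 19.7%, 16.1% and 16.9% in WT and 15.6%, 15.7% and 14.7% in *LsAP2*-OE. These 2 classes did not overlap between groups. The H4 share fell by 2.22 percentage points, or by 1.16 without WT replicate 1. The ratio of the H3 sum to the H4 sum was 0.793, 0.963 and 0.940 in WT and 0.997, 0.986 and 1.04 in *LsAP2*-OE, while the ratio of H2A to H2B was 1.21 ± 0.048 and 1.22 ± 0.052 (SD, n = 3). No test was run on these sums, which compare values of different genes and cover only the listed copies.

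**Figure D4:**
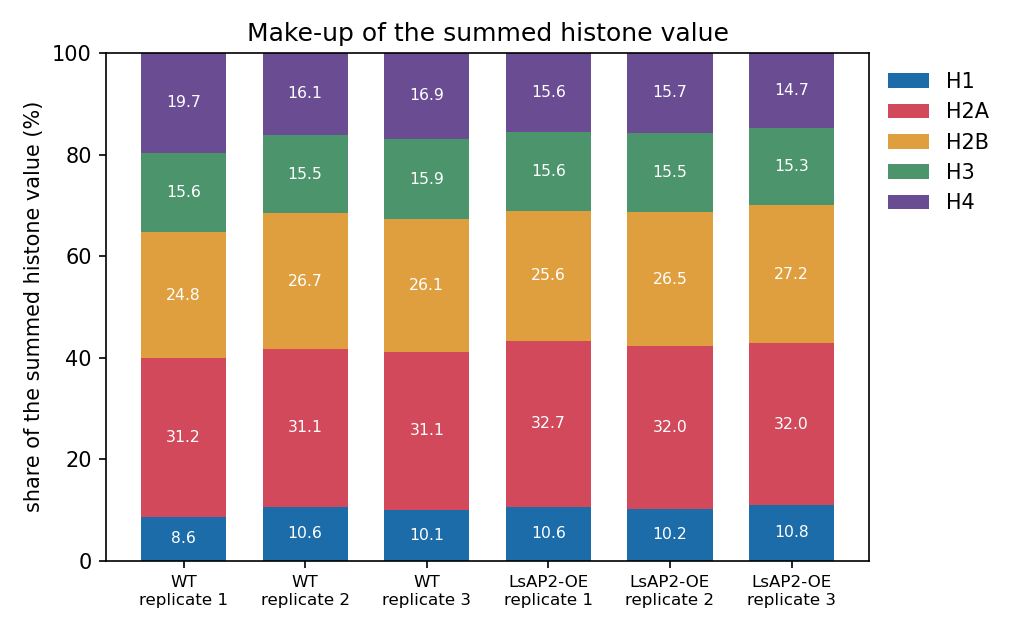
Share of the summed histone value held by each class (vertical, in %) in each of the 6 libraries, stacked to 100%. WT replicate 1 has the highest H4 share, 19.7%, and the lowest H1 share, 8.62%, and the H2A share is 31.1% to 31.2% in WT and 32.0% to 32.7% in *LsAP2*-OE.

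To ask whether single genes moved apart from the family, the mean log2 value of the histone genes was subtracted from each library and the limma fit repeated. Of the 78 genes, 72 were not called different from the histone mean at an adjusted p below 0.01, against 35.0% of all listed genes. Of the 943 other genes called lower, 820 were not called either. The histone mean is made of the same 78 genes, each of which had passed the authors' 2-fold limit. Called more strongly lower were 2, against 4.81% of all listed genes. Called less strongly lower were 4, while 60.2% of all listed genes were either less strongly lower or higher. The former were the H2B gene Lsat_1_v5_gn_2_63781, at −0.69 relative to the histone mean (SE 0.147, limma adjusted p = 0.000278), and the H4 gene Lsat_1_v5_gn_8_77961, at −0.38. The latter were the H1 genes Lsat_1_v5_gn_9_9661 and Lsat_1_v5_gn_1_16860, at 0.41 and 0.40, and the H2A genes Lsat_1_v5_gn_7_108060 and Lsat_1_v5_gn_0_7041, at 0.41 and 0.44. No H3 gene was called in this limma fit, and 2 had an unadjusted p below 0.05, both toward less lowered. Without WT replicate 1 the counts were 6 and 14. They were 4 and 4 without WT replicate 2, and 1 and 0 without WT replicate 3 and without each *LsAP2*-OE library in turn. Only Lsat_1_v5_gn_2_63781 was called in all 14 settings tried. These include the main fit and 2 scalings of whole libraries, which nearly cancel when the histone mean is subtracted.

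**Figure D5:**
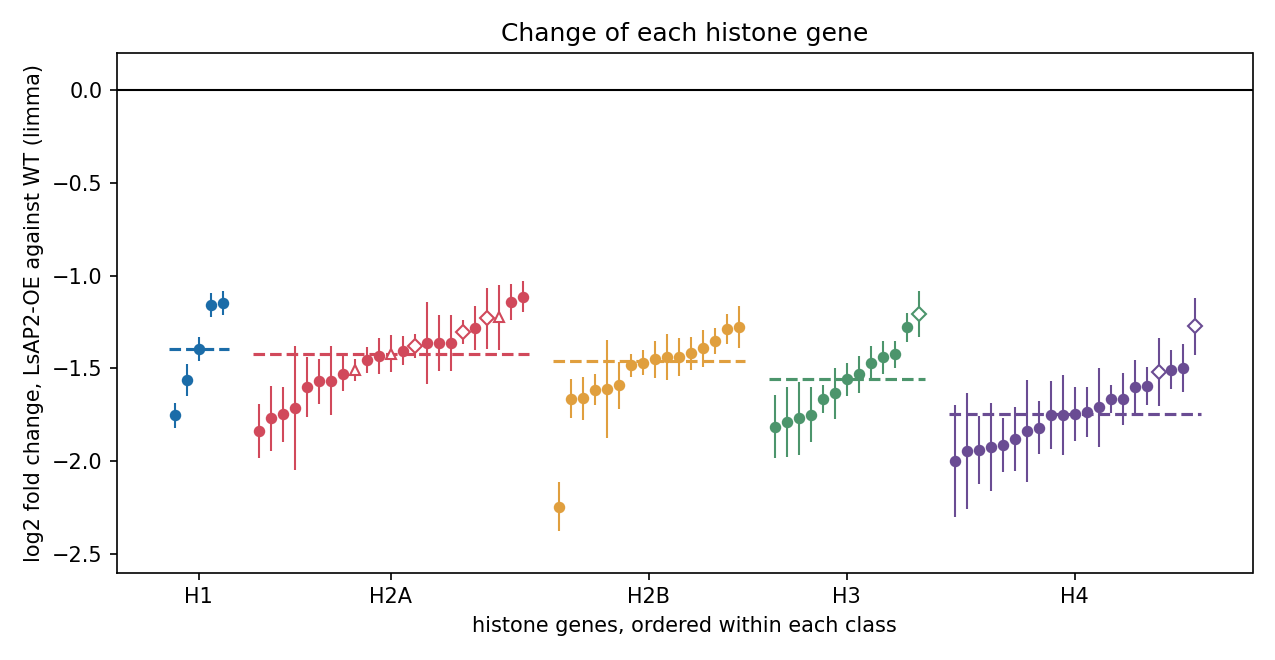
Log2 fold change of each histone gene (vertical, limma, with bars for 1 standard error), ordered within its class, with dashed lines for class medians. Open triangles are H2A.X genes and open diamonds the H2A variant, centromeric H3 and H4 variant genes; the 78 values lie between −2.24 and −1.11, and the lowest is an H2B gene.

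Many histone genes carry IDs close in number to that of another. With IDs that share the number after gn and differ by at most 200 in the last number taken as a run, 15 runs held 40 of the 78 genes. No sequence or position was matched to the IDs, so a run is a feature of the names only. The longest run, of 5, had the H2A genes Lsat_1_v5_gn_5_168621, Lsat_1_v5_gn_5_168641, Lsat_1_v5_gn_5_168801 and Lsat_1_v5_gn_5_168940 and the H4 gene Lsat_1_v5_gn_5_168841. A run of 4 joined the H2B genes Lsat_1_v5_gn_8_77660 and Lsat_1_v5_gn_8_77740, the H2A gene Lsat_1_v5_gn_8_77801 and the H4 gene Lsat_1_v5_gn_8_77961. The other runs of 3 or more each held 1 class: H4 genes at Lsat_1_v5_gn_5_89161 to Lsat_1_v5_gn_5_89261 (4 genes) and Lsat_1_v5_gn_1_129381 to Lsat_1_v5_gn_1_129540 (3 genes), H3.2 genes at Lsat_1_v5_gn_6_99380 to Lsat_1_v5_gn_6_99580 (3 genes), and H2B genes at Lsat_1_v5_gn_8_17780 to Lsat_1_v5_gn_8_17840 (3 genes). Within the longest run the log2 fold changes lay between −1.84 and −1.57, and within the run of 4 between −1.94 and −1.43.

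Within the longest run, 2 neighbouring H2A genes varied in opposite directions among the *LsAP2*-OE libraries, an example chosen after its values were seen. Lsat_1_v5_gn_5_168621 was at 645, 654 and 725 in WT and at 162, 263 and 276 in *LsAP2*-OE. Lsat_1_v5_gn_5_168641 was at 1173, 489 and 516 in WT and at 279.6, 175 and 171 in *LsAP2*-OE. In *LsAP2*-OE replicate 1 the former was low and the latter high, yet their sum was 442, 438 and 447 across the *LsAP2*-OE replicates. In WT replicate 1 the former was likewise at its lowest WT value and the latter at its highest. The sum was not steady in WT, at 1818, 1143 and 1241. The sum was 3.16-fold lower in *LsAP2*-OE, or 2.69-fold lower without WT replicate 1. Whether reads were divided between such copies was not tested. The H2B gene Lsat_1_v5_gn_8_77660 was also uneven in *LsAP2*-OE, at 156, 327 and 312, against 915, 707 and 700.5 in WT.

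Other genes of DNA replication and chromatin were set beside the histone genes by lists of words in the descriptions. The words of these lists, and of those in the next paragraph, were written with the lowered genes of these data known. Their counts are therefore not independent of the values. All 20 listed genes of DNA replication were called lower (39.6% of all listed genes), with a median log2 fold change of −1.34. Of them, 19 were not called different from the histone mean, as were 35.0% of all listed genes. The same held for 820 of the 943 genes called lower that were not histone genes. Thymidine kinase (Lsat_1_v5_gn_7_96100), which makes a precursor of DNA, was at 74.2, 73.0 and 73.7 in WT and at 22.5, 23.7 and 24.3 in *LsAP2*-OE. The replication gene called more strongly lowered than the histones, Lsat_1_v5_gn_3_26761, described as a replication protein A subunit, was at 1.30, 1.35 and 1.27 in WT and at 0, 0.041 and 0.203 in *LsAP2*-OE. Both listed histone chaperone genes fell: ASF1A (Lsat_1_v5_gn_3_54021), which hands H3 and H4 to the replication machinery, from 17.4 ± 0.625 to 7.15 ± 0.572, and MSI2 (Lsat_1_v5_gn_4_71701), of a WD-40 family of histone binding proteins, from 45.6 ± 2.84 to 19.8 ± 1.16 (SD, n = 3). The list for mitosis and the cell cycle had 10 genes in the table, 6 lower and 4 higher, where 39.6% of all listed genes were lower and 59.1% higher. Its summed value was 244 to 254 in WT and 115 to 123 in *LsAP2*-OE. The 2 genes of highest WT mean, described as Cyclin-D3-1 and cyclin-dependent kinase B1-1, were both lower. Among the 4 higher ones, cyclin-dependent kinase inhibitor 7 had a low WT mean of 1.24. Of 5 enzymes that modify histones or DNA, 3 were lower, among them the maintenance methyltransferase described as DNA (cytosine-5)-methyltransferase 1 (Lactuca_sativa_newGene_3309), from 39.3 ± 2.56 to 17.1 ± 0.592 (SD, n = 3), and 2 were higher. Unlike the core histones, the summed DNA replication value hardly varied in WT, at 1410.1, 1393 and 1429, and it was 568, 545 and 564 in *LsAP2*-OE.

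Markers of leaf tissue moved with the histone genes in part. Their counts stand beside 39.6% lower and 59.1% higher among all listed genes. The summed value of 6 Rubisco small chain genes, markers of photosynthetic mesophyll, was 6074 to 6512 in WT and 16951 to 19691 in *LsAP2*-OE, with all 6 higher. The 8 listed chlorophyll a-b binding genes, of the same tissue, were all lower, with sums of 2615 to 3258 in WT and 1001 to 1166 in *LsAP2*-OE. Of 6 genes listed by description for meristems and organ boundaries, 4 were lower and 2 higher. Their summed value was 38.8 to 49.5 in WT and 22.0 to 23.2 in *LsAP2*-OE. Much of this sum was 1 gene described as knotted-1-like 3 (Lsat_1_v5_gn_6_20120). Its mean was 26.9 in WT and 9.30 in *LsAP2*-OE, where the mean sums were 44.6 and 22.7. Whether this gene marks meristem or boundary cells in these leaves was not tested. No gene of the leaf and meristem lists of this paragraph was at 0 in any library, and no listed gene was described as SHOOT MERISTEMLESS or WUSCHEL. The part of these tissues in the fall of the histone genes was not tested.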

How the data were processed

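Young leaves of WT and *LsAP2*-OE lettuce were sequenced on an Illumina NovaSeq instrument, with 3 replicates each. The authors used HISAT2 for alignment, and they listed the genes for which DESeq gave a change of 2-fold or more with an FDR under 0.01. For versions, genome build and quantifying program, no statement was found in the paper or labels. The deposited signal is a normalized expression value per gene and library, of unnamed kind. Neither counts nor depth could be recovered, so no counting precision is given. The authors' FDR column holds the p-values of their comparison after adjustment and the authors' log2 column its fold changes, and neither was used.

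The groups were compared by limma (version 3.58.1, R 4.3.3) on log2(value + 0.1), with its mean-variance trend and neither a filter nor a replicate block. Benjamini-Hochberg adjustment covered all 2579 listed genes, and calls were made below 0.01. This scale understates changes of low genes. With 3 against 3, an exact permutation test cannot give a p below 0.1. The fits were tested on simulated data with independent noise for each gene. A shift of many genes together, as in WT replicate 1, was not simulated. The sums, ratios and figures were computed in Python 3.11.15 with pandas 2.3.3 and numpy 2.4.6. Alternatives were other pseudocounts, a filter, no trend, a replicate block, each library left out, 2 scalings, other thresholds and members by the NR description. The members and lists were chosen with earlier results of these data known.

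Named genes were *LsAP2*, all H1, H2A.X, H2A variant, centromeric H3 and H4 variant genes, and of each other group the 3 of highest WT mean and the 2 of largest and of smallest fall, with ID runs of 3 or more. From each other list, the rule took the 2 genes of highest WT mean and of largest change, of which some are given. None of the gene IDs matched the RefSeq table of lettuce (0 matches), so no sequences or coordinates are given.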

Additional observations from a re-analysis of the deposited data

How the results depend on the processing

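All 78 histone genes were called lower under every alternative to the fit, the scaling and the threshold that was run, and the 53 named ones kept their direction and call in all of their 689 values. Members taken by the NR description, another annotation in the table, numbered 47, with 9 H2B and 3 H4 genes, all lower. Leaving out each library in turn gave 1 to 6 genes more strongly lower than the histone mean and 0 to 14 less strongly lower, with WT replicate 1 as the library that raised both. Without the mean-variance trend these counts were 1 and 0 (1 and 2 at an unadjusted p below 0.05), and with a pseudocount of 0.01 the former was 1. The cause was not tested.

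Same-numbered WT and *LsAP2*-OE libraries did not all deviate together: r was −0.014, −0.039 and 0.014 over all listed genes, and 0.319, −0.129 and 0.294 over the histone genes, where differently numbered libraries gave −0.48 to 0.50. The numbers were therefore not taken as pairs. With the replicate number as a block, 78 genes were called lower and 2 less strongly lower than the histone mean.

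Scaling each library to the sum of the other listed genes moved the median log2 fold change of all listed genes by −0.62, and scaling by the median ratio moved it by −0.93. The ratio of *LsAP2*-OE to WT for the histone sum, 0.338 as deposited, was then 0.217 and 0.174, in that order. For H1 it was 0.237 and 0.190, for H2A 0.224 and 0.179, for H2B 0.222 and 0.178, for H3 0.214 and 0.171, and for H4 0.187 and 0.150. With 2501 other genes chosen for having changed, these factors follow the changed genes. The calls for all listed genes went from 1021 lower and 1525 higher to 1029 and 1113, and to 1030 and 670. The difference in the H3 share was −0.20 percentage points and 0.028 without its highest gene.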

Other observations

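Across the 78 histone genes, the log2 fold change had a Spearman's rho of −0.12 with the WT mean and of −0.50 with the ratio of WT replicate 1 to the other WT libraries. These are descriptions over genes that share libraries and similar sequences. The latter pair shares the WT replicate 1 value, which enters both measures.

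The limits are those of the table: genes that the authors did not call are not in it, depth and normalization are unknown, reads of similar copies are not separated and the transgenic line is not given.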
